A study of Mus musculus with 7 samples.

Results

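Genes of the transforming growth factor β (TGF-β) pathway were examined in mouse hematopoietic stem cells (HSCs) after deletion of Cebpa. The 10 genes were chosen by name: Tgfb1, Ltbp3 and Ltbp4 on the ligand and latency side, the receptors Tgfbr1, Tgfbr2 and Tgfbr3, and the signal transducers Smad2, Smad3, Smad4 and Smad7. Each was read from the probe set annotated to it alone. Every one had 1 such probe set, so all 10 of 10 were measured, among 19938 genes in all.

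HSCs were sorted from crushed bone marrow of female C57BL/6 mice as Lin-, Sca1+, cKit+, CD150+ and CD48- cells, and their RNA was hybridised to Affymetrix Mouse Gene ST arrays. One genotype was Cebpa flox/flox;Mx1Cre (Cebpa Δ/Δ, 4 arrays), and the controls were Cebpa flox/flox without Cre (Cebpa fl/fl, 3 arrays). Both genotypes carried loxP sites around nearly the whole transcribed Cebpa gene, received the interferon inducer pIC (also written pIpC) from 10 to 12 weeks of age and ciprofloxacin in the drinking water, and were killed at day 18. Backcrossing to that strain covered 10 generations or more, and the design counts as many mice as arrays. Mx1Cre is switched on by interferon in many tissues and not in HSCs alone, and the controls lacked it, so an effect of Cre itself cannot be told apart from loss of Cebpa. Cebpa encodes C/EBPα, a transcription factor needed to make granulocytes.

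Across the series the 7 arrays were alike, with linear medians between 46.2 and 50.4 and mean correlations with the other arrays between 0.979 and 0.985. Intensities are given on the log2 scale after Robust Multichip Average (RMA) normalization. Cebpa itself lay between 5.11 and 5.27 in Cebpa Δ/Δ arrays, against 5.54 to 5.75 in Cebpa fl/fl arrays, a log2 fold change of -0.41 (standard error, SE, 0.07), with both genotypes below the median gene. The number of arrays limits the precision of all values.

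TGF-β is secreted in an inactive form, held in a complex with a latent TGF-β-binding protein that anchors it in the matrix until it is released. Free ligand brings together a type II and a type I receptor kinase. These phosphorylate Smad2 and Smad3, which enter the nucleus with Smad4, while Smad7 is induced by the signal and shuts the receptors off. In bone marrow, TGF-β is known as a signal that keeps HSCs quiescent.

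The promoter of Ltbp3 is shown because Ltbp3 is the one of the 10 genes whose arrays separated by genotype. A stretch of the Tgfbr2 promoter is shown because, of the 6 genes with a window, it alone held a C/EBP-type motif. Promoter windows of 300 bases, from 250 before to 50 after the start, came from RefSeq (GRCm38.p6) and were found for 6 of the 10 genes (Tgfb1, Ltbp3, Ltbp4, Tgfbr1, Tgfbr2 and Smad3). Sequences are written 5′ to 3′ on the strand of the gene, and capitals mark the motifs searched.
Ltbp3, chr19:5740650-5740909, plus strand: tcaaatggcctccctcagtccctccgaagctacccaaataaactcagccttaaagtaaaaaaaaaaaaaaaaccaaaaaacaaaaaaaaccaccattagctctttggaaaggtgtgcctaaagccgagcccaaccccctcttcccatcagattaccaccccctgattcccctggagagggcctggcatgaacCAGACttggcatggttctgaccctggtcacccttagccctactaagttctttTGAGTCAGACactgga
Tgfbr2, chr9:116175531-116175598, minus strand: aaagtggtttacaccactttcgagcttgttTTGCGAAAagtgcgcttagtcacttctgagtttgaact

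In the Ltbp3 window the Smad-type motif CAGAC began 58 bases and 1 base upstream of the start, and an AP-1-type motif (TGANTCA, here TGAGTCA) began 6 bases upstream and overlapped the second CAGAC. In the Tgfbr2 window a C/EBP-type motif (TTGCNNAA, here TTGCGAAA) began 205 bases upstream. Searched on both strands of all 32851 windows of the same length, TTGCNNAA was present in 10.8%, CAGAC in 49.6% and TGANTCA in 7.81%. Of the 6 genes with a window, 1 held TTGCNNAA (Tgfbr2), 3 held CAGAC (Ltbp3, Tgfbr1 and Tgfbr2) and 1 held TGANTCA (Ltbp3). These matches describe letters and not bound sites. The study mapped C/EBPα binding in LSK cells, a mixture of HSCs and mainly multipotent progenitors. Of the genes chosen here, its list of nearest genes to bound regions held Smad3 alone. The Smad3 window held no C/EBP-type motif, and Tgfbr2 and Ltbp3 were not on that list. The study's stemness signature, a set of genes involved in stem cell function, held Ltbp3 alone of the chosen genes.

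Of the 10 genes, Ltbp3 was lower in Cebpa Δ/Δ HSCs at an unadjusted limma p under 0.05, none was higher, and 9 passed in neither direction. The count of lower genes was 2 without fl/fl 1 (Ltbp4 joined), without fl/fl 2 (Smad2 joined) or without Δ/Δ 2 (Smad4 joined). Over all 19938 genes, 3.08% were lower and 4.4% higher at that limit. None of the 10 passed a Benjamini-Hochberg adjusted p under 0.05, which 0% of all genes did (0 of 19938, with up to 3 genes when an array was left out). None passed the study's thresholds, an unadjusted p under 0.05 together with a change over 1.5-fold, which 2.19% of all genes passed. Ltbp3 passed these thresholds without Δ/Δ 4 and with the replicate number as a block (log2 fold change -0.59 in both). On the log2 scale, the fold change of Cebpa Δ/Δ over Cebpa fl/fl lay below 0 for 7 of the 10 and above 0 for 3, with a median of -0.20 beside 0.00 over all genes. In 1 of the 10, Ltbp3, all Cebpa Δ/Δ arrays were below all Cebpa fl/fl arrays, and in 0 of the 10 they were all above. Among all genes these shares were 2.46% and 3.51%. A count of 1 in 10 is too small to be set apart from such a background.

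**Figure D1:**
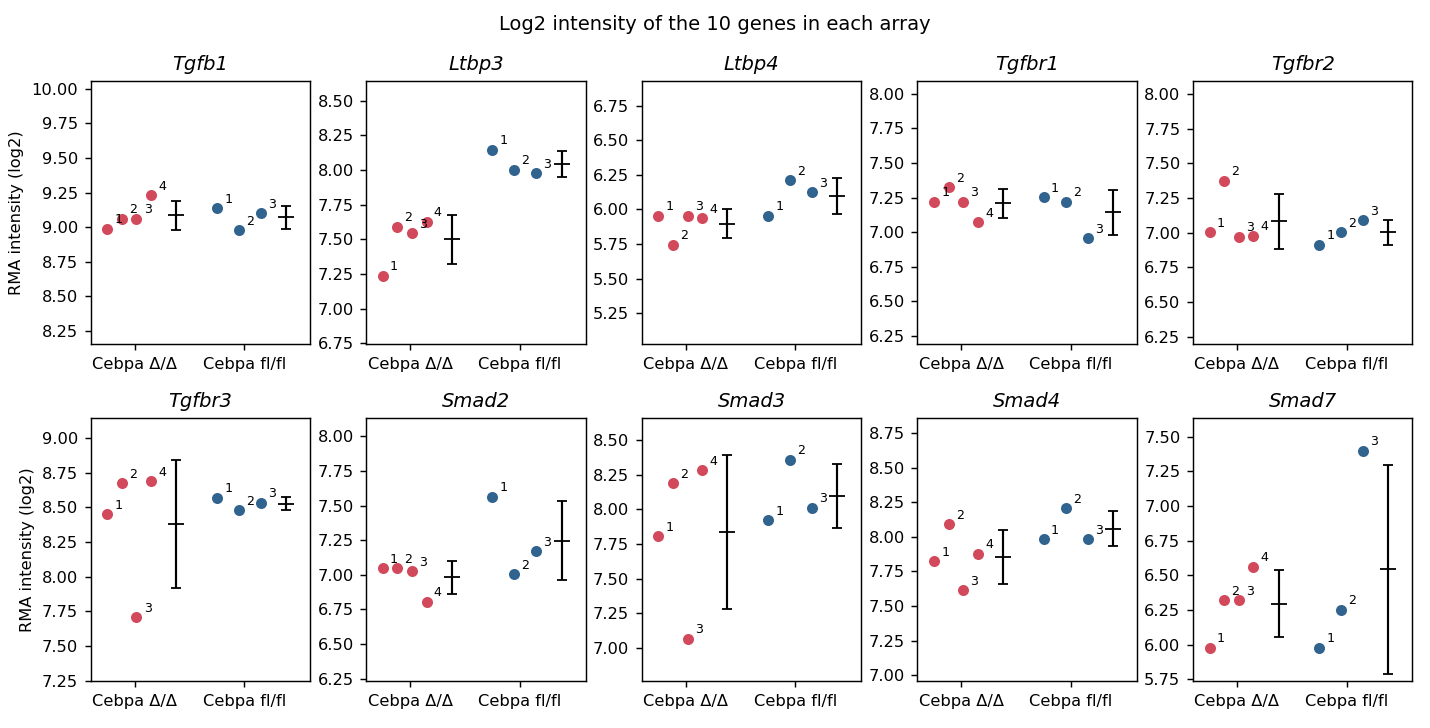
Log2 intensity (RMA) of each of the 10 genes on the y axis, by genotype on the x axis, Cebpa Δ/Δ in red and Cebpa fl/fl in blue; each point is 1 array numbered as in the labels, the bar beside the points is the mean with its SD, and every panel spans the same number of log2 units. Ltbp3 is the one panel without overlap, with Cebpa Δ/Δ arrays from 7.24 to 7.63 and Cebpa fl/fl arrays from 7.98 to 8.15.

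Among the ligand and latency genes, Ltbp3 differed between the genotypes and Tgfb1 did not differ by more than its replicate spread. Ltbp3 (probe set 10460666, chromosome 19) encodes a latent TGF-β-binding protein that helps fold and secrete the ligand. Its log2 intensity was 7.24, 7.59, 7.54 and 7.63 in the Cebpa Δ/Δ arrays (1 to 4), against 8.15, 8.003 and 7.98 in the Cebpa fl/fl arrays (1 to 3). Δ/Δ 1 was the lowest, and a gap of 0.35 separated the highest Cebpa Δ/Δ array from the lowest Cebpa fl/fl array. The means were 7.50 ± 0.18 (SD, n = 4) in Cebpa Δ/Δ and 8.04 ± 0.09 (SD, n = 3) in Cebpa fl/fl HSCs. This is a log2 fold change of -0.54 (SE 0.11, 95% interval -0.80 to -0.29), with the level in Cebpa Δ/Δ at 0.686 times that in Cebpa fl/fl. limma gave an unadjusted p of 0.0018, rank 91 of 19938, and an adjusted p of 0.393. An exact two-sided permutation test over the 35 splits of the 7 arrays gave p = 0.0286, the smallest it can give. Without Δ/Δ 1 the log2 fold change was -0.46.

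Tgfb1 (probe set 10551185, chromosome 7) encodes the ligand TGF-β1. It measured 8.99, 9.06, 9.06 and 9.23 in Cebpa Δ/Δ arrays and 9.14, 8.98 and 9.10 in Cebpa fl/fl arrays, and the genotypes overlapped. Its log2 fold change was 0.01 (SE 0.07), and its 95% interval of -0.17 to 0.19 did not reach that of Ltbp3. Within each array, log2 Ltbp3 minus log2 Tgfb1 was -1.75, -1.47, -1.52 and -1.61 in Cebpa Δ/Δ, against -0.99, -0.98 and -1.12 in Cebpa fl/fl. This difference, which holds the probe sets' own brightness as well, moved by -0.56 between the genotypes, so the signals of the binding protein and the ligand changed unequally in the same arrays. It was 1 of 2 such pairs compared, the other being Ltbp3 minus Ltbp1 (-0.84), and both gave p = 0.0286 in the exact permutation test, the smallest it can give. Both pairs were chosen after their values were seen, so this p is not independent of the choice. For Ltbp3 minus Ltbp1 the genotypes had to separate, since Ltbp3 was lower and Ltbp1 higher in all Cebpa Δ/Δ arrays. For Ltbp3 minus Tgfb1 they had to separate too, since Tgfb1 spanned 0.25 over the 7 arrays, less than the Ltbp3 gap of 0.35. Neither pair adds anything to the values of the single genes.

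Ltbp4 (probe set 10561212, chromosome 7) encodes another latent TGF-β-binding protein. It measured 5.96, 5.74, 5.96 and 5.94 in Cebpa Δ/Δ arrays, against 5.96, 6.21 and 6.12 in Cebpa fl/fl arrays. The value 5.96 was the same to 8 decimals in Δ/Δ 1, Δ/Δ 3 and fl/fl 1, so the genotypes met at that value. Its log2 fold change was -0.20 (SE 0.09, 95% interval -0.40 to 0.01), with an unadjusted limma p of 0.0567 and an exact permutation p of 0.0857. Without fl/fl 1 it was -0.27, at an unadjusted limma p of 0.0189. Repeated values of this kind were common in the table. 63.6% of all genes and 7 of the 10 held an identical value in at least a pair of arrays, and this limits how finely small differences can be read.

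The receptor genes showed no difference past a threshold. Tgfbr1 (probe set 10504817, chromosome 4), the type I receptor kinase, averaged 7.21 ± 0.10 (SD, n = 4) in Cebpa Δ/Δ and 7.14 ± 0.16 (SD, n = 3) in Cebpa fl/fl HSCs, a log2 fold change of 0.07 (95% interval -0.16 to 0.30). Tgfbr2 (probe set 10597518, chromosome 9), the type II receptor kinase that binds the ligand, averaged 7.08 ± 0.20 (SD, n = 4) in Cebpa Δ/Δ and 7.002 ± 0.09 (SD, n = 3) in Cebpa fl/fl HSCs, a log2 fold change of 0.08 (95% interval -0.20 to 0.36). For both kinases the intervals lie within a change of 1.5-fold in either direction. Most of the difference in Tgfbr2, the gene with the C/EBP-type motif printed above, came from Δ/Δ 2 at 7.38, since the other Cebpa Δ/Δ arrays (6.97 to 7.003) lay within the Cebpa fl/fl range of 6.91 to 7.09.

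Tgfbr3 (probe set 10532085, chromosome 5) encodes betaglycan, a co-receptor that presents ligand to the kinases. It measured 8.45, 8.67, 7.71 and 8.69 in Cebpa Δ/Δ arrays, against 8.57, 8.48 and 8.53 in Cebpa fl/fl arrays. Δ/Δ 3 alone was far below the rest, while the other Cebpa Δ/Δ arrays lay on either side of the Cebpa fl/fl arrays. With all arrays the log2 fold change was -0.15 (SE 0.24, 95% interval -0.73 to 0.44), and without Δ/Δ 3 it was 0.08.

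The log2 fold changes of all 4 Smad genes were between -0.26 and -0.21, and none passed a threshold with all arrays in the fit. Smad2 (probe set 10456764, chromosome 18), a receptor-activated transducer, measured 7.05, 7.05, 7.03 and 6.81 in Cebpa Δ/Δ arrays, against 7.56, 7.004 and 7.17 in Cebpa fl/fl arrays. fl/fl 1 was high and Δ/Δ 4 low, and fl/fl 2 lay among the Cebpa Δ/Δ arrays. The log2 fold change was -0.26 (SE 0.14, 95% interval -0.60 to 0.08, unadjusted limma p = 0.107, adjusted p = 0.703, exact permutation p = 0.114). It was -0.39 without fl/fl 2, at an unadjusted limma p of 0.0338, and -0.11 without fl/fl 1.

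Smad3 (probe set 10594404, chromosome 9), the other receptor-activated transducer of TGF-β, measured 7.80, 8.19, 7.06 and 8.28 in Cebpa Δ/Δ arrays, against 7.92, 8.36 and 8.01 in Cebpa fl/fl arrays. As for Tgfbr3, Δ/Δ 3 was far below all others, and Δ/Δ 2 and Δ/Δ 4 lay within the Cebpa fl/fl range. Its log2 fold change was -0.26 (SE 0.31, 95% interval -0.997 to 0.48, unadjusted limma p = 0.426, adjusted p = 0.822, exact permutation p = 0.6). Without Δ/Δ 3 it was -0.00, so the value rested on that array.

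Smad4 (probe set 10459705, chromosome 18), the common partner of the activated Smads, measured 7.82, 8.09, 7.61 and 7.88 in Cebpa Δ/Δ arrays, against 7.98, 8.21 and 7.98 in Cebpa fl/fl arrays. Δ/Δ 3 was again the lowest, and Δ/Δ 2 lay among the Cebpa fl/fl arrays. The log2 fold change was -0.21 (SE 0.12, 95% interval -0.50 to 0.09). It was -0.13 without Δ/Δ 3, and -0.29 without Δ/Δ 2, at an unadjusted limma p of 0.0362.

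Smad7 (probe set 10456745, chromosome 18), the inhibitory Smad that the pathway itself induces, measured 5.98, 6.32, 6.32 and 6.56 in Cebpa Δ/Δ arrays, against 5.98, 6.25 and 7.40 in Cebpa fl/fl arrays. fl/fl 3 was far above every other array, and the remaining Cebpa fl/fl arrays lay within the Cebpa Δ/Δ range. With all arrays the log2 fold change was -0.25 (SE 0.35, 95% interval -1.08 to 0.58), and without fl/fl 3 it was 0.18, so its sign depended on that array.

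**Figure D2:**
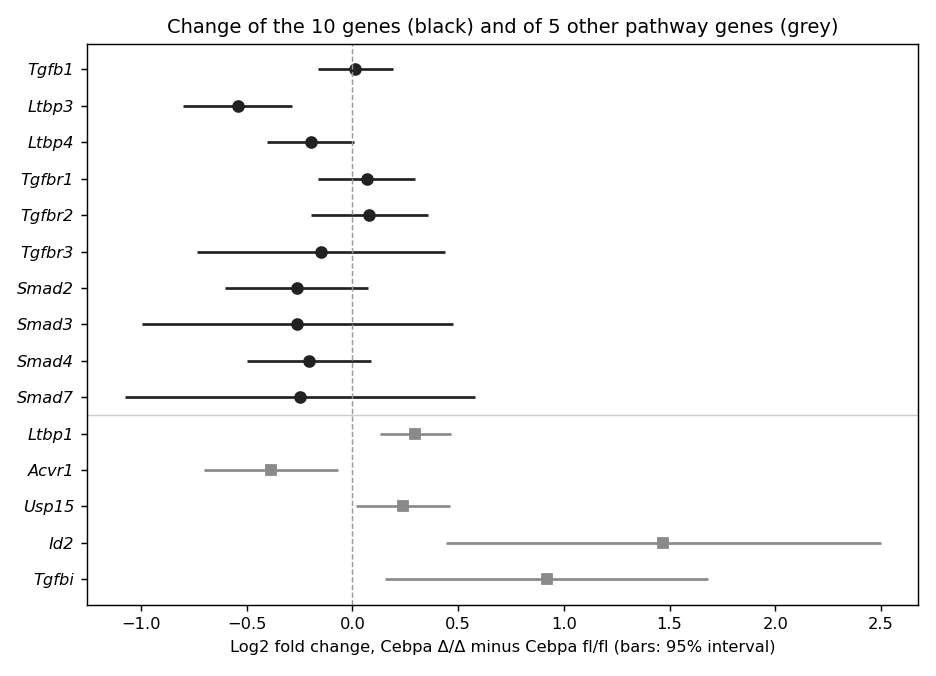
Log2 fold change (x axis, Cebpa Δ/Δ minus Cebpa fl/fl, 95% interval as the bar) of the 10 genes (black circles) and of the 5 other pathway genes at an unadjusted limma p under 0.05 (grey squares), with 1 gene per line on the y axis. Of the 10 genes, the interval of Ltbp3 alone, from -0.80 to -0.29, leaves out 0.

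Single arrays stood behind several of these values, and in Δ/Δ 3 most HSC markers were low as well. Δ/Δ 3 was the lowest array for 3 of the 10 genes (Tgfbr3, Smad3 and Smad4) and for 6 of the 10 measured HSC and sort markers. Slamf1, which encodes CD150, was 6.92 in Δ/Δ 3 against 7.73 to 8.15 in the other arrays, and Mecom, a transcription factor of HSCs, was 7.41 against 8.13 to 8.84. Hlf, Meis1, Kit and Fgd5 were lowest there as well, whereas Cd48 was highest there, at 8.82. Their part in the low Tgfbr3, Smad3 and Smad4 values was not tested. In sorted bulk cells such as these, fewer cells of a type and less RNA per cell cannot be told apart. fl/fl 3, high for Smad7, was the highest array for 6 of 17 measured TGF-β-responsive genes other than Smad7. Among them were Skil (7.74, against 5.70 to 6.51 in the other arrays) and Junb (8.18), an immediate early gene, although Δ/Δ 4 was close behind for Junb at 8.15. Of the same 17 genes, 7 were lowest in fl/fl 1, so the control arrays spread in both directions. How often each array was lowest or highest over all genes was not counted.

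**Figure D3:**
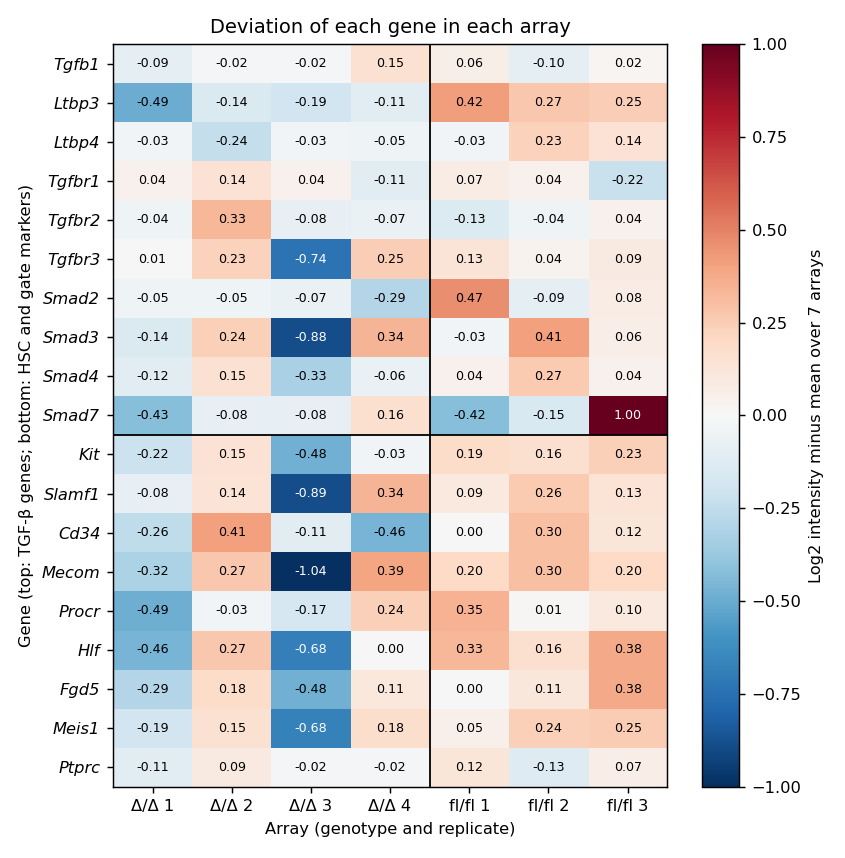
Log2 intensity minus the gene's mean over the 7 arrays (colour and printed value) for the 10 genes and, below the line, 9 of the 10 HSC and sort markers (Cd48, which ran the other way, is not drawn), with the arrays on the x axis and Cebpa Δ/Δ left of Cebpa fl/fl. Δ/Δ 3 is low for Tgfbr3 (-0.74), Smad3 (-0.88), Slamf1 (-0.89) and Mecom (-1.04), while Ltbp3 is below its mean in all 4 Cebpa Δ/Δ arrays and above it in all 3 Cebpa fl/fl arrays.

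The difference in Ltbp3 stood beside larger differences in markers of other blood cells. The mean log2 intensity of 10 mature neutrophil markers was 4.52 to 5.56 in Cebpa Δ/Δ arrays, against 7.61 to 9.20 in Cebpa fl/fl arrays, and 9 of the 10 were lower at an unadjusted limma p under 0.05. That of 8 erythroid markers was 7.87 to 8.94 in Cebpa Δ/Δ, against 5.65 to 6.71 in Cebpa fl/fl arrays, with 8 of 8 higher. For 10 macrophage and dendritic markers it was 5.36 to 6.44 in Cebpa Δ/Δ, against 4.87 to 4.98 in Cebpa fl/fl arrays, with 6 of 10 higher. For 12 stromal and endothelial markers it was 5.69 to 5.82 in Cebpa Δ/Δ, against 5.30 to 5.65 in Cebpa fl/fl arrays, with 3 of 12 higher (Pdgfrb, Cxcl12 and Sparc). Megakaryocyte markers, of interest because platelets carry much TGF-β1, were at 7.32 to 7.37 in Cebpa Δ/Δ and 7.01 to 7.52 in Cebpa fl/fl arrays, with 0 of 8 past that limit. B cell markers overlapped too. The mean of the T and NK cell markers was 4.99 to 5.41 in Cebpa Δ/Δ, against 4.77 to 4.95 in Cebpa fl/fl arrays, with 1 of 9 (Cd3e) past that limit. The mean of the 10 HSC and sort markers overlapped between the genotypes, but it includes Cd48, the 1 marker past that limit (log2 fold change 2.75, higher in Cebpa Δ/Δ) although the sort kept CD48- cells. The other 9 had log2 fold changes below 0, the median over all 10 was -0.29, and Kit was below all Cebpa fl/fl arrays in all Cebpa Δ/Δ arrays. The part of these cell types in the Ltbp3 value was not tested.

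As a description, the genes whose log2 values followed Ltbp3 most closely over the 7 arrays were Chil4 (Pearson r = 0.986), Csad (0.978) and Reep2 (0.970). Each averaged less in Cebpa Δ/Δ, at 3.00 against 3.58 in Cebpa fl/fl for Chil4, 7.33 against 7.81 for Csad and 6.24 against 6.61 for Reep2. That direction follows from the choice, since these were the highest correlations among all genes over arrays of both genotypes. Chil4 was dim and has a near copy in the neutrophil gene Chil3, so its own signal is uncertain. All these points share the same arrays and the same normalization.

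The rest of the pathway showed few differences as well. The lists held 75 other pathway genes that were measured. At an unadjusted limma p under 0.05, 4 of the 75 were higher, 1 was lower and 70 were neither, against backgrounds of 4.4% and 3.08%, and none passed the adjusted threshold. The count of lower genes was 4 without fl/fl 1, 3 without Δ/Δ 2 and 0 without fl/fl 3 or Δ/Δ 3, and that of higher genes was 2 without fl/fl 1. The median log2 fold change of the 75 was 0.02. By role, 1 of 11 other ligand and latency genes was higher (Ltbp1), 1 of 11 other receptors of the superfamily was lower (Acvr1), 0 of 4 other Smads passed in either direction, 1 of 19 Smad and receptor modulators was higher (Usp15), 0 of 17 other ligands and antagonists passed, and 2 of 18 TGF-β-responsive genes were higher (Id2 and Tgfbi). Some genes stand in more than 1 of these lists, and Smad7 is counted among the responsive genes too. The responsive list was not split by whether the signal raises or lowers a gene.

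Ltbp1, a further latent TGF-β-binding protein, lay on the other side from Ltbp3. It measured 4.93, 4.96, 4.85 and 5.10 in Cebpa Δ/Δ arrays, against 4.64, 4.72 and 4.63 in Cebpa fl/fl arrays, with no overlap. Its log2 fold change was 0.30 (SE 0.07, unadjusted limma p = 0.0046, adjusted p = 0.494, exact permutation p = 0.0286), at levels below the median gene of every array. Acvr1, a type I receptor mainly of bone morphogenetic proteins, averaged 5.18 ± 0.17 (SD, n = 4) in Cebpa Δ/Δ and 5.57 ± 0.21 (SD, n = 3) in Cebpa fl/fl HSCs, a log2 fold change of -0.39 (SE 0.13, unadjusted limma p = 0.0239, adjusted p = 0.663, exact permutation p = 0.0857). The unadjusted p was above 0.05 when any of these arrays was left out: fl/fl 1 (-0.30), fl/fl 3 (-0.36), Δ/Δ 1 (-0.33), Δ/Δ 3 (-0.37) and Δ/Δ 4 (-0.38).

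Usp15, a deubiquitinase that stabilises the activated receptor, averaged 8.75 ± 0.15 (SD, n = 4) in Cebpa Δ/Δ and 8.52 ± 0.07 (SD, n = 3) in Cebpa fl/fl HSCs, a log2 fold change of 0.24 (SE 0.09, unadjusted limma p = 0.0402, adjusted p = 0.663, exact permutation p = 0.0857). Its unadjusted p also went above 0.05 when 1 array was left out, whether fl/fl 1 (0.27), fl/fl 2 (0.24), fl/fl 3 (0.20), Δ/Δ 1 (0.17) or Δ/Δ 3 (0.22), and under both other scalings of the arrays, at 0.23 with medians subtracted and 0.22 with cyclic loess.

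Id2 and Tgfbi had the largest positive changes on the lists. Id2, an inhibitor of basic helix-loop-helix factors that TGF-β and bone morphogenetic proteins regulate, measured 7.14, 6.48, 7.73 and 6.40 in Cebpa Δ/Δ arrays, against 4.71, 5.85 and 5.85 in Cebpa fl/fl arrays. The genotypes did not overlap, and the log2 fold change was 1.47 (SE 0.43, unadjusted limma p = 0.0123, adjusted p = 0.622, exact permutation p = 0.0286). It was 1.09 without fl/fl 1 and 0.83 without both fl/fl 1 and Δ/Δ 3, the array of each genotype that correlated least with the others. Id1 and Id3, on the same list, had log2 fold changes of -0.32 and -0.01, and neither passed. Id2 was highest in Δ/Δ 3 and Δ/Δ 1, where the means of the erythroid and macrophage markers were highest too. The part of those cell types in the Id2 value was not tested. Tgfbi, a matrix protein named for its induction by TGF-β and also made by macrophages, measured 8.33, 8.88, 8.33 and 8.85 in Cebpa Δ/Δ arrays, against 7.05, 8.33 and 7.66 in Cebpa fl/fl arrays. Δ/Δ 1, Δ/Δ 3 and fl/fl 2 met at 8.33, and the log2 fold change was 0.92 (SE 0.32, unadjusted limma p = 0.0255, adjusted p = 0.663, exact permutation p = 0.0857). Leaving out fl/fl 1 (0.60), fl/fl 3 (0.91), Δ/Δ 2 (0.83) or Δ/Δ 4 (0.83) took its unadjusted p above 0.05. Macrophage markers were higher in Cebpa Δ/Δ arrays, as given above. Their mean was 6.44 in Δ/Δ 1 and 6.22 in Δ/Δ 3, where Tgfbi was lower, at 8.33. It was 5.36 in Δ/Δ 2 and 5.61 in Δ/Δ 4, where Tgfbi was higher, at 8.88 and 8.85. The part of these cells in the Tgfbi value was not tested. Skil, which encodes a Smad co-repressor that the signal induces, had a log2 fold change of -0.81 (SE 0.38, unadjusted limma p = 0.0734, exact permutation p = 0.114), and was named after its values were seen. Without fl/fl 3 its log2 fold change was -0.36.

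**Figure D4:**
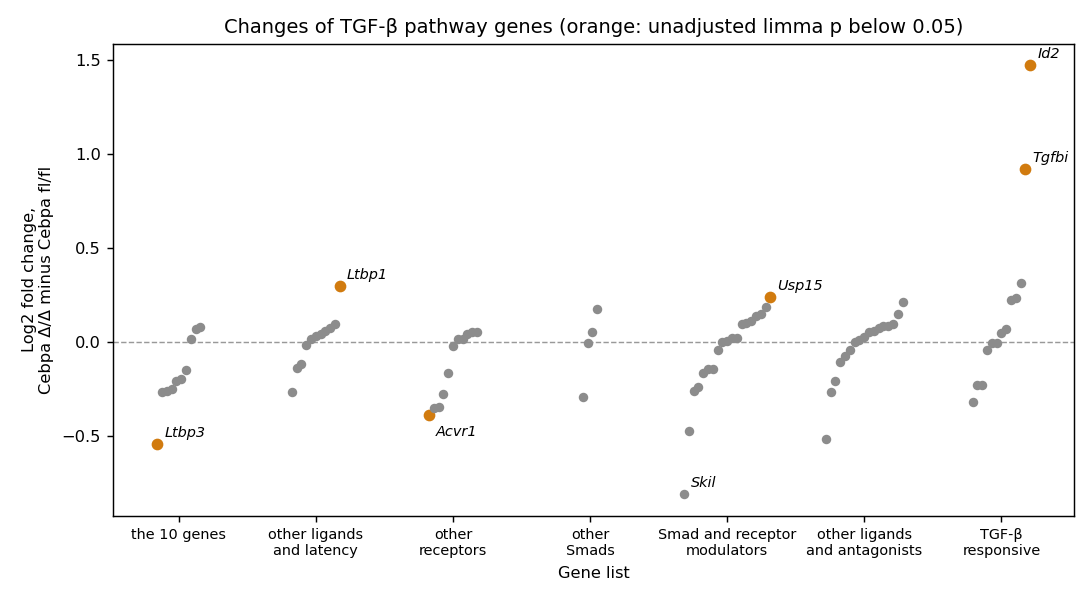
Log2 fold change (y axis, Cebpa Δ/Δ minus Cebpa fl/fl) of each measured gene of the TGF-β lists, grouped along the x axis, each gene drawn once and sorted within its list. Orange points passed an unadjusted limma p under 0.05: Ltbp3 among the 10 genes, and Ltbp1, Acvr1, Usp15, Id2 and Tgfbi among 75 others.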

How the data were processed

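RNA from sorted HSCs was amplified from 20 ng with a NuGEN kit and hybridised to Mouse Gene 1.0 ST arrays, 1 per mouse. The authors computed the deposited intensity values by Robust Multichip Average (RMA) in Partek Genomics Suite 6.5, which corrects background, equalises the arrays' distributions and summarises probe sets, and which would hide any change in the total RNA content of a cell. RMA and affy are also named in the submitters' processing notes, and the genome build is not given in the sources used here. The deposited intensities were linear (1.51 to 9840), so log2 was taken first, without a pseudocount.

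Of 35556 probe sets, 21789 had 1 gene symbol, 1621 several and 12146 none in the annotation. Symbols of 21698 were matched to the reference through the Entrez number. For the 999 genes with several probe sets the brightest was used, leaving 19938 genes. The table held 0 unused sample columns. Genotypes were compared with limma 3.58.1 (R 4.3.3; lmFit and eBayes, genotype as the only term) with Benjamini-Hochberg adjustment over all genes, and single values with an exact two-sided permutation test. limma's p was also read at the thresholds the study states, since the study names no array test. The fit was tested on simulated data. Promoters were searched with Python 3.11.15.

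The members and gene lists were chosen with earlier results of these data known. All 10 genes were described, in full where the unadjusted p was under 0.05, the log2 fold change was among the 3 largest in size or the arrays did not overlap. Array values were added for others where single arrays stood apart. Of each pathway list, genes at an unadjusted p under 0.05 were named, at most 5. The 3 genes most correlated with the most changed of the 10 were named as a description. 17 alternatives were run: array scaling, low values, a filter on dim genes, averaged probe sets, array weights, a variance trend, ordinary standard errors, a replicate block and left-out arrays. The labels give triplicates in the extraction text but 3 and 4 samples.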

Additional observations from a re-analysis of the deposited data

Results flagged for a closer look

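Among 16 groups of 4 Cebpa Δ/Δ arrays tested (the 10 genes, the 5 named pathway genes and Cebpa), 3 held an array that stood apart by Dixon's test at the 95% level, where chance gives about 1 flag in 20 groups. Ltbp4 was low in Δ/Δ 2 at 5.74, against 5.94 to 5.96 in the other Cebpa Δ/Δ arrays. Tgfbr2 was high in Δ/Δ 2 at 7.38, against 6.97 to 7.003. Smad2 was low in Δ/Δ 4 at 6.81, against 7.03 to 7.05. For Ltbp4 and Smad2, a pair of the other Cebpa Δ/Δ arrays held an identical value, which narrows their spread. The chance rate takes values without such ties, so the 3 flags cannot be set against it. The test was run on groups of 4 arrays only, so the 3 Cebpa fl/fl arrays, with the high Smad7 value of fl/fl 3, were not examined by it.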

How the results depend on the processing

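The log2 fold change of Ltbp3 kept its direction and an unadjusted p under 0.05 under 17 of 17 alternatives (-0.59 to -0.46, adjusted p 0.225 to 0.807). Of the 170 values of the 10 genes under the alternatives, 156 kept direction and side of the threshold, 9 changed sign and 5 newly passed an unadjusted p of 0.05. Tgfb1 changed sign with cyclic loess (-0.0097). With 1 array left out, Tgfb1 ranged from -0.035 to 0.046, Tgfbr1 from -0.027 to 0.12, Tgfbr2 from -0.018 to 0.12, Tgfbr3 from -0.25 to 0.076 and Smad7 from -0.53 to 0.18. Ltbp4 ranged from -0.27 to -0.14, Smad2 from -0.39 to -0.11 and Smad4 from -0.29 to -0.13. Without the least correlated array of each genotype (fl/fl 1 and Δ/Δ 3), Tgfbr3 was 0.10 and Ltbp4 -0.29 (unadjusted p = 0.0282 by limma), and with array weights Ltbp4 was -0.23 (unadjusted p = 0.0302 by limma). Of the 83 values of the 5 named pathway genes, 24 no longer passed an unadjusted p of 0.05 and none changed sign.

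At an unadjusted p under 0.05 by limma, the count of the 10 genes that were lower was 2 with array weights and without the least correlated arrays, and 1 to 2 with an array left out. Other pathway genes that were lower numbered 3 with medians subtracted, 2 with low values raised to the percentile 25, 0 among genes above the median level, 2 with array weights, 2 with ordinary standard errors, 3 without the least correlated arrays and 0 to 4 with an array left out. Those that were higher numbered 2 among genes above the median level, 2 with ordinary standard errors and 2 to 5 with an array left out. Over all genes, 362 were lower among genes above the median level and 370 with ordinary standard errors, with 377 (without Δ/Δ 1) to 749 when an array was left out. 566 were higher among genes above the median level. That setting tested only those brighter genes, so its counts come from fewer genes than the others. Acvr1 and Ltbp1 were not among the genes it tested. At an adjusted p under 0.05 there were 5 genes among those above the median level and 0 to 3 with an array left out (3 without fl/fl 3). At the study's thresholds 266 genes passed without the least correlated arrays.

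The replicate numbers did not pair the samples: correlations of deviations between arrays of the same number were -0.02, 0.10 and -0.18. With the replicate number as a block, in which Δ/Δ 4 has no partner and so adds nothing to the genotype difference, Tgfb1 was -0.035 and Ltbp3 -0.59, and 1 of the 10 genes (Ltbp3) passed the study's thresholds, as it did without Δ/Δ 4 (0 to 1 with an array left out). The number of arrays and repeated intensities limit what small differences can show.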
